A study of Mus musculus with 11 samples.

Results

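The spots described here were 999 Visium spots rich in transcripts of Anxa2 and poor in transcripts of phagocytes and fibroblasts, in 4 mouse liver sections taken 48 h after paracetamol (acetaminophen, APAP). Visium captures polyadenylated RNA on a grid of barcoded spots, each 55 µm wide with centres 100 µm apart, so a spot can hold several cells. Spots on the tissue mask were kept if 800 or more genes were detected and mitochondrial transcripts made up no more than 20% of the UMIs (unique molecular identifiers, each counting a captured transcript). Within each section, the 50% of kept spots with the lowest summed share of Lyz2, Cd68, Col1a1, Col3a1 and Acta2 were taken as other-cell-poor. Of these, the 20% with the highest Anxa2 share were named Anxa2-high and the 20% with the lowest were named Anxa2-low, after Anxa2 UMIs per 10000 UMIs of the spot. This gave 346, 149, 262 and 242 Anxa2-high spots in sections A, B, C and D, and equal numbers of Anxa2-low spots, out of 5002 other-cell-poor and 10006 kept spots at 48 h. The whole series held 25136 kept spots. The spots were thus chosen by the measured levels of Anxa2 and the 5 other genes, whose values are descriptions, as are the neighbour and distance measures built on them below. All 6 genes were left out of the gene tests.

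The series comprised 11 sections, namely 3 of uninjured liver at 0 h and, after APAP, 2 at 24 h, 2 at 36 h and 4 at 48 h. Per the study's methods the animals were adult wild-type C57BL/6JCrl mice, male unless stated otherwise, fasted and injected intraperitoneally with APAP, and the livers were snap-frozen unfixed before cryosectioning. Those methods give a single mouse for each time point in this assay, and the labels do not tie sections to animals, so n counts sections, and the p-values measure how sections vary and not how mice vary. The classes were compared within a section, between spots that share the mouse, the slide area and the library, and sections were set against each other only for the levels at 0 h and the comparison between times.

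Annexin A2 is a calcium-dependent phospholipid-binding protein that forms a complex with S100A10 and links membranes to the actin cytoskeleton. In the uninjured liver, hepatocytes near the central vein and near the portal tract express different enzymes. Pericentral hepatocytes, which respond to Wnt signals, carry the cytochromes P450 that turn APAP into its reactive metabolite, and APAP therefore kills hepatocytes around the central vein. The study marks hepatocytes that move into the wound by their ANXA2, and the comparison below asks what else differs between Anxa2-high and Anxa2-low spots where few transcripts of phagocytes and fibroblasts were found.

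The classes rested on few Anxa2 molecules. Anxa2-high spots held a median of 5, 5, 8 and 4 Anxa2 UMIs in sections A to D. The lowest Anxa2 share inside the Anxa2-high class was 2.154, 1.29853, 2.595 and 1.04946 UMIs per 10000 in sections A to D, and the highest share just outside it was 2.152, 1.29842, 2.587 and 1.04921. The highest share inside the Anxa2-low class was 0.5218, 0.338, 0.715 and 0, and the lowest share just outside it was 0.5222, 0.340, 0.716 and 0. In section D every Anxa2-low spot had no Anxa2 UMI, and 28 tied spots without one were left in the middle class in a seeded random order. Summed over a class, Anxa2 lay at 314, 184, 374 and 153 UMIs per 1000000 UMIs of the class (CPM) in the Anxa2-high spots of sections A to D and at 20.5, 12.02, 40.8 and 0 in the Anxa2-low spots. Other-cell-poor spots of the 0 h sections held 11.9 ± 1.08 CPM (SD, n = 3). The Anxa2 level of the Anxa2-low spots at 48 h was therefore near that of uninjured liver in section B, above it in sections A and C and at no UMI in section D.

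**Figure D1:**
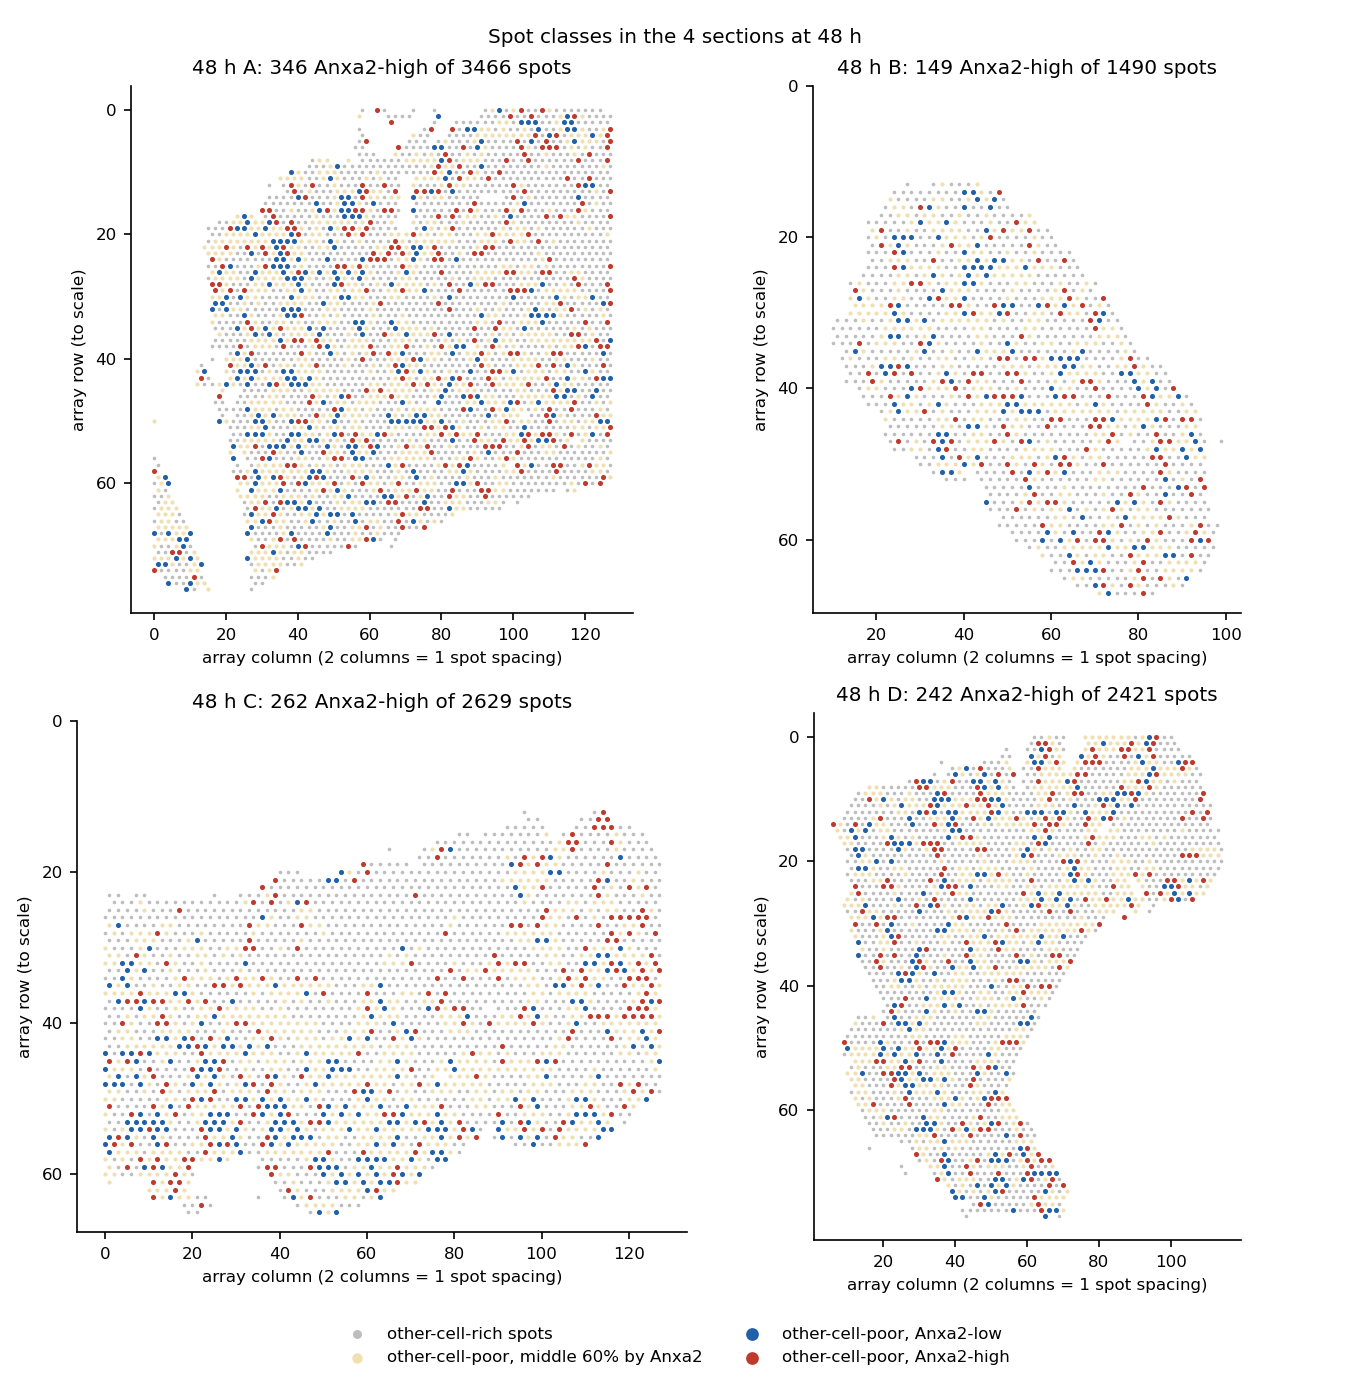
Position of the spot classes in the 4 sections at 48 h, with the array column and row on the axes, drawn to scale. Red points are the 999 Anxa2-high spots, blue points the 999 Anxa2-low spots, pale points the middle 60% by Anxa2 and grey points the other-cell-rich spots. Both classes are spread over each section.

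By their markers both classes were mostly hepatocyte. The summed markers of hepatocytes (Alb, Apoa1, Ttr, Trf, Hp, Hnf4a and Cyp2e1) lay at 1201, 1285, 1103 and 1113 UMIs per 10000 in the Anxa2-high spots of sections A to D and at 1233, 1337, 1116 and 1108 in the Anxa2-low spots, higher in 1 of 4 sections. Depth differed little between the classes, with median UMIs per spot of 16463, 28459, 22615 and 25974 in Anxa2-high and 19126, 29611, 20852 and 23662 in Anxa2-low spots. Mitochondrial transcripts made up on average 3.53%, 2.81%, 3.95% and 2.74% of the UMIs of Anxa2-high spots in sections A to D and 3.24%, 2.90%, 2.597% and 2.35% of those of Anxa2-low spots. The share was thus higher in 3 of 4 sections, most so in section C, and its part in the results was not tested. Of the 12 mitochondrially encoded genes tested, 1 was called higher and 0 lower. Spots off the tissue mask held a median of 10293 UMIs in section A, 4517 in section D, 1465 in section C and 1198 in section B. The medians of kept spots in these sections were 17518, 25169, 23341 and 27988.5. Whether the UMIs off the mask were free RNA was not tested, nor was their part in the results.

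Traces of other cells remained, and most were a little higher in Anxa2-high spots. The 5-gene score used to pick the spots lay at 2.94, 3.62, 8.20 and 7.02 UMIs per 10000 in the Anxa2-high spots of sections A to D and at 2.66, 3.30, 5.48 and 6.37 in the Anxa2-low spots, so it was close in 3 sections and wider apart in section C. Other-cell-poor is relative to the section, since its highest score was 4.50, 5.03, 11.5 and 9.71. Anxa2-high spots of sections C and D thus held more of the 5 genes than the other-cell-rich Anxa2-low spots of A and B (6.65 and 6.72). In the 0 h sections the other-cell-poor Anxa2-high spots held 1.01, 1.05 and 0.986. Summed macrophage markers (23 genes, without the rule genes) averaged 14.9 against 13.4 UMIs per 10000 and were higher in 3 of 4 sections (exact sign-flip test, two-sided p = 0.25). Summed stellate cell and myofibroblast markers (7.96 against 6.41), endothelial markers (5.51 against 4.78), cholangiocyte markers (2.63 against 2.23) and red cell markers (3.004 against 2.33) were higher in 4 of 4 sections (exact sign-flip test, two-sided p = 0.13 for each, the smallest it can give with 4 sections). Neutrophil markers lay at 0.886 against 0.899 and lymphocyte markers at 0.130 against 0.0990 UMIs per 10000, higher in 2 and 3 of 4 sections. Mesothelial markers were scarce, at 0.0663 against 0.0305, but higher in 4 of 4 sections (exact sign-flip test, two-sided p = 0.13). Their mean log2 ratio was 1.08, the widest of the marker lists. Of the defining markers, the mesothelial Wt1 had 15 UMIs over all Anxa2-high spots (5 over Anxa2-low spots), the T cell gene Cd3e had 2 (8) and the biliary gene Krt7 had 23 (23), whereas the Kupffer cell genes Cd5l and Clec4f had 3579 (3454) and 2439 (2656). In a sum over many cells, more cells of a type and more RNA per cell cannot be told apart.

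Counts were summed per section and class, which gave 8 libraries of 4353279 to 6182324 UMIs, and tested with edgeR's quasi-likelihood test with the section as a block. Of 11235 genes tested, 426 were higher in Anxa2-high spots (3.79% of the genes tested) and 588 were lower (5.23%) at a Benjamini-Hochberg adjusted p under 0.05. The differences were small. The median size among the called genes was 0.38 on the log2 scale for the higher and 0.26 for the lower genes, and 24 and 1 of them exceeded 1. All 4 sections pointed the same way for 355 of the 426 and 542 of the 588. The split depended on the scaling, since dividing by the total count alone gave 806 higher and 246 lower and moved the median gene from 0.00 to 0.07, so directions are given relative to TMM scaling. DESeq2 called 370 genes, edgeR called 511 without section A and 604 without section C, and 0 were called with no replicate block (404 at an unadjusted p under 0.05). Levels below are CPM of the summed class, as mean ± SD over 4 sections or by section, and fold changes are from the TMM-scaled fit.

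**Figure D2:**
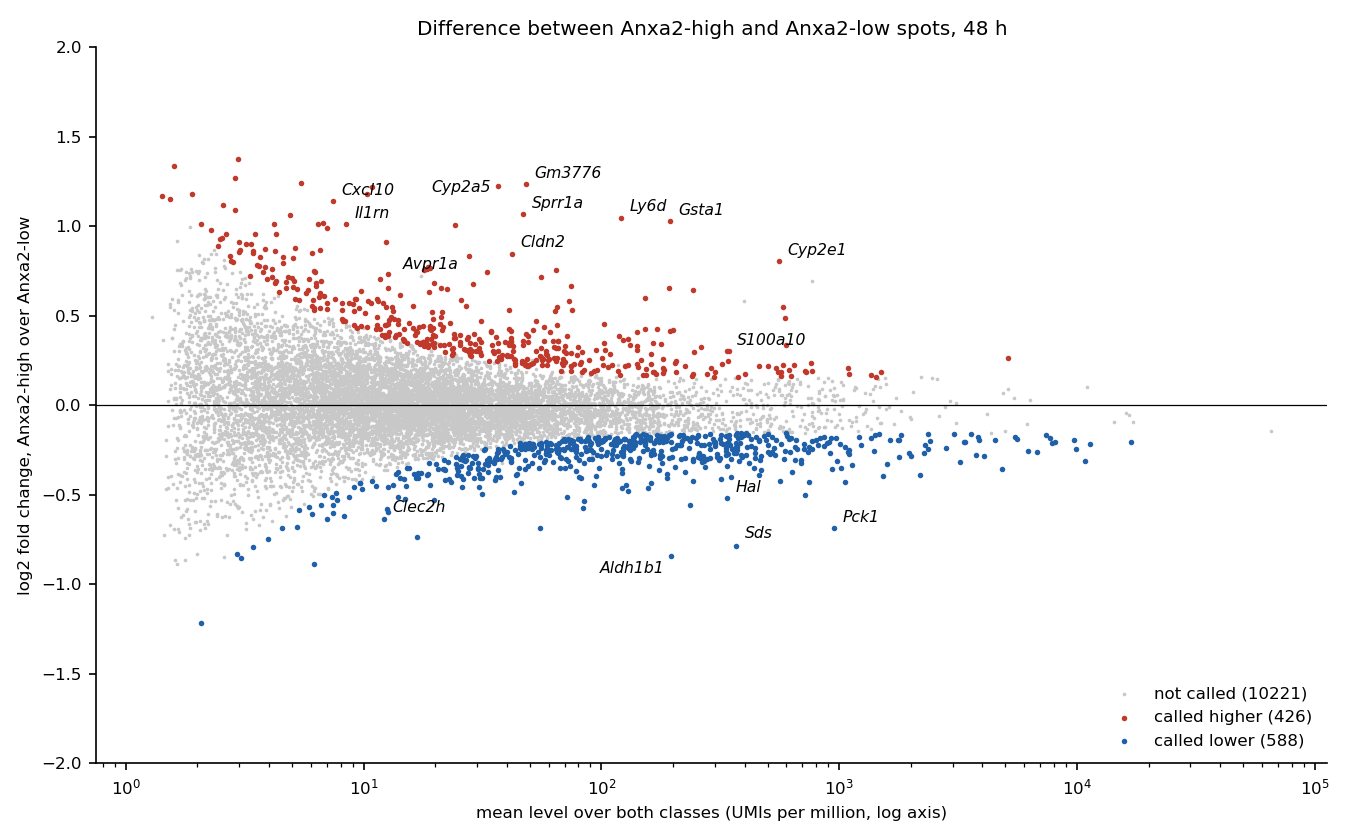
Log2 fold change of Anxa2-high over Anxa2-low spots against the mean level of each gene over both classes (CPM, log axis) for the 11235 genes tested. Red points are the 426 genes called higher and blue points the 588 called lower, and the named genes are those described in the text; 0 genes lie beyond the axis.

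Some genes of pericentral hepatocytes were higher in Anxa2-high spots. Cyp2e1 (ENSMUSG00000025479; mm10 chr7:140763739-140774987, plus strand), the P450 best known for activating APAP, lay at 819, 771, 691 and 626 CPM in the Anxa2-high spots of sections A to D and at 441, 350, 404 and 376 in the Anxa2-low spots. The lowest Anxa2-high value was above the highest Anxa2-low value, and the log2 fold change was 0.81 (SE 0.055, adjusted p = 1.4e-23). Both classes stayed below the 2066 ± 374 CPM of other-cell-poor spots at 0 h (SD, n = 3). Avpr1a (ENSMUSG00000020123), the vasopressin receptor of pericentral hepatocytes, lay at 40.7, 42.7, 37.0 and 25.7 against 20.5, 18.4, 23.1 and 14.8, again without overlap, with a log2 fold change of 0.83 (SE 0.093, adjusted p = 8.8e-12). Among all genes tested, 2.80% had such wholly higher groups and 0.383% wholly lower ones.

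Several Wnt targets of the pericentral zone shared this direction. Of 14 tested, 7 were higher and 0 lower, with a median of 0.48 against 0.00 over all genes. Cldn2 (ENSMUSG00000047230; chrX:139800828-139811386, plus strand), which encodes a pore-forming tight junction claudin, lay at 62.5, 43.6, 72.6 and 43.0 CPM in Anxa2-high and 31.8, 23.4, 33.8 and 27.3 in Anxa2-low spots, without overlap (log2 fold change 0.85, SE 0.078, adjusted p = 5.4e-16). Cyp2a5 (ENSMUSG00000005547; chr7:26835305-26843548, plus strand), a coumarin-oxidising P450, lay at 79.7, 19.8, 85.1 and 25.1 against 31.8, 7.26, 31.7 and 13.05. Its level was higher in sections A and C than in B and D in both classes, so the groups overlapped, but every section was higher in its Anxa2-high spots (log2 fold change 1.22, SE 0.086, adjusted p = 2.3e-23). The others were Slc13a3, Tbx3, Oat, Gulo and Cyp1a2, from 0.30 for Cyp1a2 to 0.99 for Slc13a3. Not all targets moved. Glul, the glutamine synthetase of the innermost hepatocytes, lay at 14.8 against 12.6 (0.16) and was not called, and the Wnt feedback gene Axin2 at 3.05 against 1.85 (0.65) was not called either. Lgr5 (40 against 9 UMIs) fell below the filter on low counts.

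Of the 23 genes of the study's central list, 8 were higher and 0 lower, at a median of 0.04, so most of the list did not pass. The 8 were Cyp2e1, Cyp2c29 (71.0 ± 16.4 against 40.6 ± 5.08, log2 fold change 0.72), Lect2 (303 ± 61.0 against 184 ± 37.6, 0.64), Cyp2c67, Rgn, Csad, Cyp3a11 and Gstm1. The Cyp2c genes resemble each other closely and reads can be shared between such copies, so single members are uncertain. Abundant members such as Cyb5a (-0.06) and Mgst1 (-0.16) were not called. The study drew its central and portal lists on its own spatial data, so their direction here is not independent evidence.

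The periportal side was lower. All 12 genes of the study's portal list were tested and all 12 were lower (median -0.39), and 11 of them stayed lower under total-count scaling. Sds (ENSMUSG00000029597; chr5:120476526-120483932, plus strand), which turns serine into pyruvate, lay at 418, 188, 321 and 188 CPM in the Anxa2-high spots of sections A to D and at 645, 314, 603 and 276 in the Anxa2-low spots (log2 fold change -0.79, SE 0.056, adjusted p = 3.8e-22). Hal, the first enzyme of histidine breakdown, lay at 337, 355, 233 and 222 against 436, 471, 349 and 295 (-0.52, SE 0.054, adjusted p = 1.6e-13). Each section was lower in its Anxa2-high spots for both genes, although the ranges of the classes overlapped.

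Enzymes of the urea cycle and periportal metabolism followed, with 14 of 18 lower and 0 higher (median -0.26). Pck1 (ENSMUSG00000027513; chr2:173153048-173159273, plus strand), the gluconeogenic phosphoenolpyruvate carboxykinase, lay at 849, 333, 580 and 1291 against 1309, 463, 1114 and 1695 (log2 fold change -0.69, SE 0.068, adjusted p = 1.8e-08). The urea cycle genes Cps1 (-0.24), Otc (-0.27), Ass1 (-0.25), Asl (-0.29) and Arg1 (-0.33) were all lower, by less than Pck1. Aldh1b1 (ENSMUSG00000035561; chr4:45799022-45804604, plus strand), a mitochondrial aldehyde dehydrogenase, was the largest named fall, at 162, 155, 145 and 118 in Anxa2-high against 252, 280, 272 and 185 in Anxa2-low spots, without overlap (log2 fold change -0.84, SE 0.056, adjusted p = 1.4e-24).

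**Figure D3:**
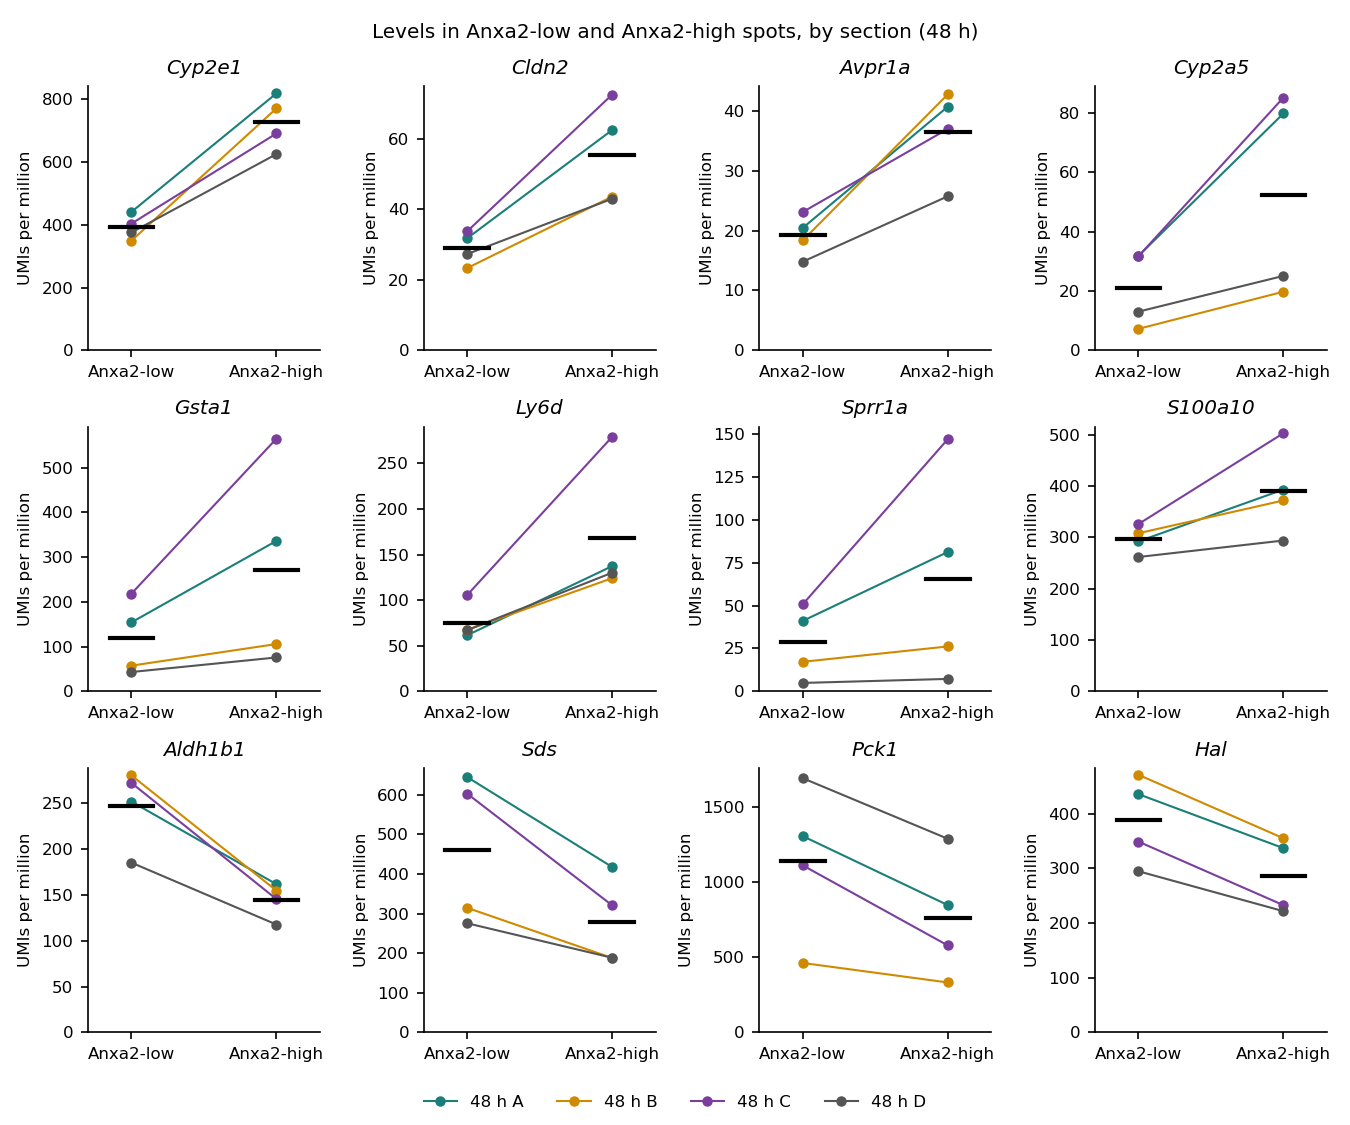
Level (CPM of the class) of 12 genes in Anxa2-low and Anxa2-high spots, 1 coloured line for each of the 4 sections at 48 h, with black bars at the means. Every line rises for Cyp2e1, Cldn2, Avpr1a, Cyp2a5, Gsta1, Ly6d, Sprr1a and S100a10 and falls for Aldh1b1, Sds, Pck1 and Hal.

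The other large falls were a mixed group. They included Etnppl, which breaks down phosphoethanolamine (43.4 ± 19.0 against 66.5 ± 34.8, log2 fold change -0.68), Mfsd2a, a lysophospholipid transporter (-0.73), Upp2, a uridine phosphorylase (-0.57), Slc3a1, a subunit of an amino acid transporter (-0.51), the sodium channel subunit gene Scnn1a (-0.60), the VIP receptor gene Vipr1 (-0.58) and the steroid enzymes Hsd17b6 (-0.56) and Cyp17a1 (-0.51). Clec2h (-0.63), Gadd45g (-0.54) and Odf3b (-0.53) completed the 15. Cyp17a1 was not called without section C (-0.44, edgeR adjusted p = 0.063) and Vipr1 was not called without section D (-0.39, edgeR adjusted p = 0.094). For Mfsd2a, section B was level before scaling, at 4.13 against 4.08 CPM, and the level was highest in section A, at 36.2 against 50.3.

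Many genes of secreted hepatocyte proteins were lower by small amounts. Of 25 acute phase genes, 15 were lower and 1 higher (median -0.19), of 23 complement and coagulation genes 14 were lower and 0 higher (-0.17), and of 26 hepatocyte identity genes 11 were lower and 0 higher (-0.13). Under total-count scaling, 7, 5 and 5 of these lists were lower and 1 hepatocyte identity gene was higher. C3, the central complement component, lay at 5848 ± 749 against 6640 ± 1049 (-0.25), and haptoglobin (Hp) at 7697 ± 1339 against 8501 ± 2044 (-0.21). Alb itself, at -0.14, was not called. Of 15 bile acid genes, 8 were lower (4 under total-count scaling), among them the bile salt export pump Abcb11 (360 ± 45.3 against 413 ± 39.5, -0.28). The single bile acid gene that was higher was Cyp7a1, the rate-limiting enzyme of bile acid synthesis and a pericentral gene, at 41.5 ± 17.3 against 31.8 ± 15.3 (0.30, adjusted p = 0.009). Fatty acid oxidation genes mostly did not pass, with 3 of 20 lower (median -0.10, and 0 lower under total-count scaling), and glycolysis held 1 higher of 13, Pkm (median -0.01, and 0.07 under total-count scaling).

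Sprr1a and Ly6d were among the largest rises. Sprr1a (ENSMUSG00000050359; chr3:92483952-92485895, minus strand), a small proline-rich protein made by damaged epithelia and neurons, lay at 81.2, 26.2, 147 and 7.28 CPM in Anxa2-high and 41.1, 17.2, 50.8 and 4.94 in Anxa2-low spots (log2 fold change 1.07, SE 0.10, adjusted p = 6.9e-09). Ly6d (ENSMUSG00000034634; chr15:74762056-74763620, minus strand), a GPI-anchored surface protein, lay at 137, 124, 279 and 130 against 61.5, 67.3, 106 and 67.2, without overlap (1.05, SE 0.062, adjusted p = 6.4e-26). Both were close to absent at 0 h, where other-cell-poor spots held 0.0430 and 1.04 CPM. Section C held the highest level of each in both classes.

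A pair of secreted inhibitors and a chemokine were also among the 15 largest rises. Slpi, an inhibitor of neutrophil elastase, lay at 32.9 ± 16.2 against 15.5 ± 7.35 (log2 fold change 1.004), and Il1rn, the interleukin-1 receptor antagonist, at 11.5 ± 4.09 against 5.41 ± 2.17 (1.01). Cxcl10, an interferon-induced chemokine, lay at 14.2, 10.8, 8.44 and 8.41 against 6.49, 4.53, 2.98 and 3.88, without overlap (1.14, SE 0.17, adjusted p = 2.3e-07). Other genes of the 15 were Cpe, a prohormone-processing carboxypeptidase (15.4 ± 7.96 against 6.398 ± 1.65, 1.22), and Pmm1, a phosphomannomutase (14.6 ± 8.06 against 6.10 ± 2.32, 1.18). Mmp12, the macrophage elastase (16.6 ± 8.78 against 8.27 ± 2.598, 0.91), and Postn, the fibroblast matrix protein periostin (24.0 ± 8.33 against 13.5 ± 6.09, 0.77), were among the 15 too and are best known from other cells.

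Glutathione transferases of the alpha class led the antioxidant genes. Gsta1 (ENSMUSG00000074183; chr9:78230656-78242684, plus strand) lay at 336, 106, 565 and 75.9 CPM in Anxa2-high and 154, 57.6, 219 and 43.4 in Anxa2-low spots (log2 fold change 1.03, SE 0.062, adjusted p = 4.2e-24). The neighbouring Gm3776 (ENSMUSG00000111709; chr9:78257129-78269166, plus strand) lay at 87.6, 16.3, 158 and 15.2 against 36.0, 11.3, 52.7 and 8.11 (1.23), the largest of the 15 rises named by rule. Both were lower in sections B and D than in A and C. The sequences of these genes are so alike that a read of one may be counted for another, which leaves the value of each uncertain, and the related Gsta2 did not differ, at 36.9 against 35.6 (-0.01, not called).

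Of the 18 targets of NRF2 tested, the factor that induces antioxidant genes, 6 were higher and 0 lower (median 0.16). Besides Gsta1 these were Abcc4 (0.87), Srxn1, the sulfiredoxin that repairs peroxiredoxins (94.7 ± 45.5 against 55.1 ± 15.98, 0.67), Gstm3 (0.53), Ugdh, which makes UDP-glucuronate (151 ± 20.5 against 114 ± 20.01, 0.34), and Txnrd1, thioredoxin reductase (129 ± 17.9 against 107 ± 8.87, 0.19). The glutamate-cysteine ligase genes Gclc (0.13) and Gclm (-0.09), Nqo1 (0.41) and Hmox1 (0.24) were not called. NRF2 binds the antioxidant response element, whose core was searched as TGACNNNGC on both strands of RefSeq promoter windows (GRCm38.p6, 250 bases before to 50 after a start). The core was in the windows of 6 of the 16 list genes that had one (37.5%), among them 4 of the 6 called higher, against 13.99% of 27025 genes and 17.1% of the genes tested here. Over all calls the share was 16.7% of the higher and 16.8% of the lower genes. The list was picked as targets of NRF2, so its own share says nothing about these spots. The called list genes with the core were Abcc4, Srxn1, Txnrd1 and Ugdh. The windows of Ugdh and Txnrd1 are shown as examples. They are given as the 250 bases before the start, 5′ to 3′ on the gene's strand, with the core of either strand in capitals. A match describes the letters only.
Ugdh, chr5:65435843-65436092, minus strand, 2 cores: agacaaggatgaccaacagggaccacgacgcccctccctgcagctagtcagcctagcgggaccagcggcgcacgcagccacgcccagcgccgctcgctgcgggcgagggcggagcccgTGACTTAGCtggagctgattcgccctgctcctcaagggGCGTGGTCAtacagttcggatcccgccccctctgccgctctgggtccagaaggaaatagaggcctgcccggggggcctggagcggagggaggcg
Txnrd1, chr10:82858956-82859205, plus strand, 1 core: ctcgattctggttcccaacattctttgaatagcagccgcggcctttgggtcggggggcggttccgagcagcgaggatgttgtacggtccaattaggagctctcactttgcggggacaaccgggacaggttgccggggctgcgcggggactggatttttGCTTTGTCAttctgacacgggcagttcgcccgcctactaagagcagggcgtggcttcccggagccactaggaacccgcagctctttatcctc

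Some partners and relatives of Anxa2 were higher as well. S100a10 (ENSMUSG00000041959; chr3:93555080-93564643, plus strand), whose product binds annexin A2, lay at 393, 372, 503 and 294 CPM in Anxa2-high and 292, 308, 326 and 262 in Anxa2-low spots. Every section was higher, with a log2 fold change of 0.30 (SE 0.055, adjusted p = 2.5e-05), a small part of the contrast in Anxa2 itself. Of the 8 S100 genes tested, S100a6 (243 ± 114 against 142 ± 52.7, 0.65), S100a11 (0.76) and S100a4 (0.77) were also higher, while S100a1 and S100a13 were level (-0.08 and -0.12). Among the other annexins, Anxa3 (0.67), Anxa5 (165 ± 44.3 against 116 ± 12.4, 0.41) and Anxa7 (0.24) of 8 tested were higher and none lower, and Anxa6 was at -0.02.

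Some cytoskeleton genes rose by small steps. Of 44 actin and motility genes, 16 were higher and 0 lower (median 0.17), so most did not pass. The 16 included Actb (843 ± 91.3 against 676 ± 21.96, 0.24), Actg1 (0.33), the actin-binding Tmsb10 (188 ± 52.9 against 118 ± 32.2, 0.60), vinculin (Vcl, 0.37), profilin (Pfn1, 0.29), the Arp2/3 subunits Arpc1b and Arpc2 (0.28 and 0.19) and the myosin light chains Myl12a, Myl12b and Myl6 (0.25, 0.17 and 0.17). The median of the list was 0.19, 0.01, 0.33 and 0.10 in sections A to D, so section B was level. Of 8 tubulin genes 5 were higher (median 0.26), from 0.21 for Tubb4b to 0.56 for Tubb6. The hepatocyte keratins Krt8 (721 ± 381 against 440 ± 151, 0.55) and Krt18 (723 ± 393 against 457 ± 156, 0.49) were higher, whereas the biliary Krt19 (0.61, 60 against 37 UMIs) and Sox9 (-0.18) were not called. Several of these genes are also expressed by macrophages and fibroblasts.

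Of 17 integrin and matrix-contact genes, 6 were higher, namely Itga6, Cd63, Cd44, Itgav, Tgfbi and Cd151 (0.23 to 0.69), and Vtn, the hepatocyte-made vitronectin, was lower (-0.22). Junction genes were mostly level, with Cldn2 and Tjp1, which encodes zonula occludens 1 (16.9 ± 2.95 against 12.4 ± 1.98, 0.37), higher and Abcb11 lower of 21 (median -0.01, and 0.07 under total-count scaling). The study drew its migratory hepatocyte signature from a human hepatocyte cluster. Of 42 mouse genes matched here without Anxa2, 31 were tested, and the rest fell below the filter on low counts. Of the 31, 7 were higher (Dusp5, Ndrg1, Itgav, Bcl2l1, Reln, Tpm1 and Txnrd1, 0.19 to 0.83) and 0 lower (median 0.16). Reln is also a stellate cell marker. Of 21 TGF-beta and YAP genes 3 were higher, the receptors Tgfbr1 and Tgfbr2 (0.41 and 0.30) and Fstl1 (0.60), and Yap1 was at 0.03. In the plasminogen and HGF list, the activator Plat (7.78 ± 5.30 against 3.17 ± 1.37, 1.24), the urokinase receptor Plaur (0.76) and Serpinb6a (0.22) were higher, and Hpn and Serpinf2 were lower, of 17. Of the AP-1 and immediate early factors, Ier3 (1.02) and Klf6 (0.53) were higher and Ier2 and Nfil3 lower, of 17.

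Genes of cell division and of p53 were higher where they passed. Of 39 S phase genes 6 were higher and 0 lower (median 0.26), among them the helicase subunit Mcm5 (23.3 ± 6.71 against 15.5 ± 4.66, 0.52), the ribonucleotide reductase subunits Rrm1 and Rrm2 (0.43 and 0.48) and Pcna (0.28). Of 52 G2 and mitosis genes 9 were higher and 0 lower (median 0.33), among them Top2a (15.8 ± 8.08 against 11.04 ± 5.11, 0.48) and Kif11 (0.93). The G2 and mitosis median was 0.53 in section C against 0.07 in section B. Of 13 p53 targets 5 were higher, the cell cycle inhibitor Cdkn1a (0.39), Gdf15 (0.37), Phlda3 (0.59), Aen (0.30) and Bax (0.26), with a median of 0.23 and every member above 0. Ribosome biogenesis held 1 higher of 20, Nhp2, and the ER stress list 1 higher, Ddit3, and 2 lower, Atf5 and Herpud1, of 18.

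Several genes of cholesterol synthesis were higher in Anxa2-high spots. Of 18 genes 8 were higher and 0 lower (median 0.21), and those named here run along the pathway from Hmgcs1 (178 ± 49.9 against 126 ± 35.8, 0.43) through Idi1 (0.40), Fdps (275 ± 78.5 against 213 ± 64.2, 0.30), Fdft1 (0.22) and Lss (0.35) to Cyp51 (0.39). The genes of fatty acid synthesis in the list were not called, with Fasn at 0.05, Acaca at -0.06 and Scd1 at 0.13.

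The levels were followed across quintiles of the Anxa2 share, since the classes use only the ends of the distribution. The quintiles were cut on Anxa2, so the steps are a description. Cyp2e1 averaged 393, 443, 477, 555 and 727 CPM from the lowest to the highest quintile, and Avpr1a 19.2, 19.2, 22.4, 27.1 and 36.5. Ly6d went 75.4, 84.3, 93.05, 104 and 168 and Gsta1 119, 128, 140, 158 and 271. The step into the highest quintile was thus the widest of each series. Anxa2 itself, on which the quintiles were cut, averaged 18.4, 61.1, 99.1, 146 and 256 CPM. Its own widest step was also the last, so the wide last step of the other genes is no sign of a jump relative to Anxa2. Sds went the other way, at 459, 437, 410, 371 and 279, as did Aldh1b1, at 247, 243, 219, 195 and 145, and again the last step was the widest.

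**Figure D4:**
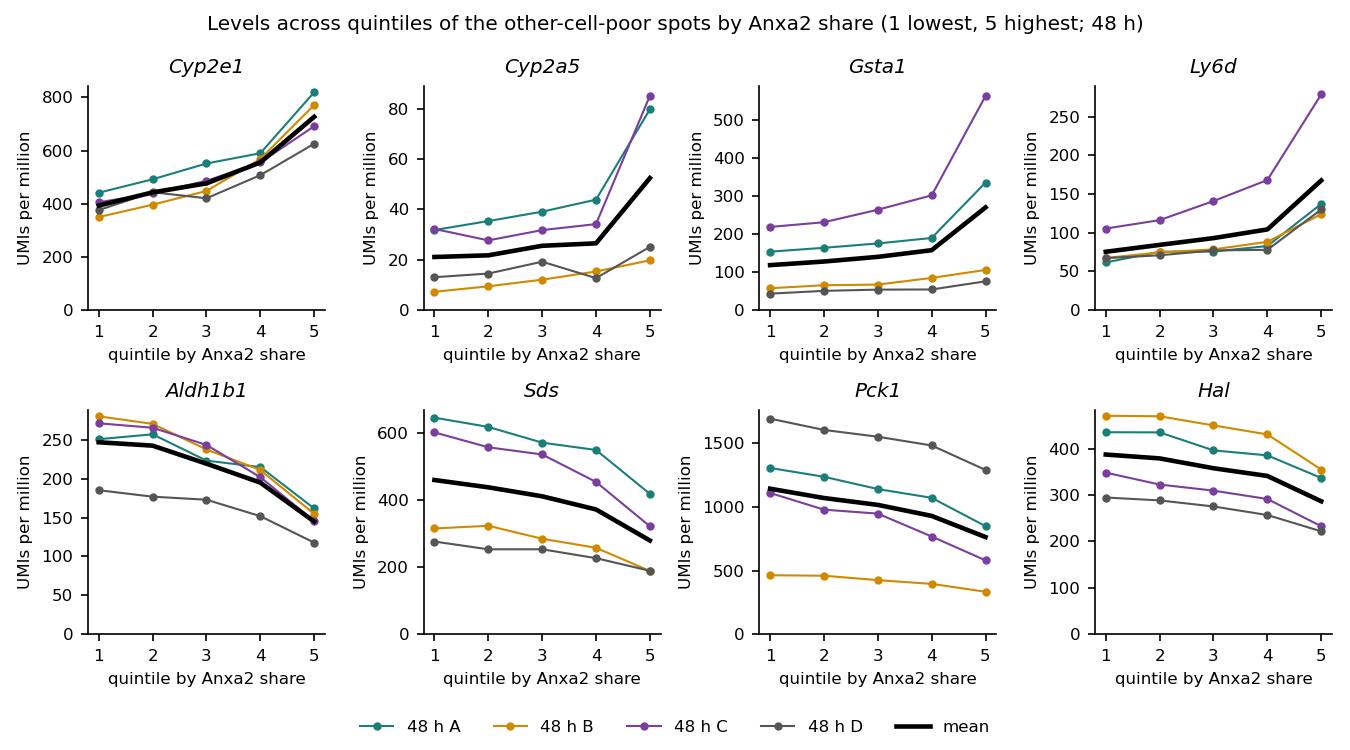
Mean level (CPM) of 8 genes across quintiles of the other-cell-poor spots by Anxa2 share, 1 lowest and 5 highest, with 1 coloured line for each section at 48 h and the mean in black. The mean of Cyp2e1 runs from 393 to 727 and that of Sds from 459 to 279, with the widest step into the highest quintile. The step in Anxa2 itself was also widest there.

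The residual trace of other cells was set against the calls by drawing the classes again. When Anxa2-high and Anxa2-low spots were picked within 5 bins of a wider score, which added the markers of macrophages, neutrophils, stellate cells, endothelium, cholangiocytes, mesothelium and lymphocytes to the 5 genes, macrophage markers lay at 12.6 against 13.5 UMIs per 10000 and were higher in 0 of 4 sections. Stellate cell and myofibroblast markers (7.10 against 6.60), red cell markers (3.35 against 2.37), mesothelial markers (0.0628 against 0.0285) and the 5-gene score (5.64 against 4.83) remained higher in 4 of 4 sections. In that setting 422 genes were higher and 558 lower, and 745 of the 1014 calls were kept in direction. Cyp2e1 was at 0.83 and Pck1 at -0.56 there, while Mmp12 fell to 0.59 and Postn to 0.35, all still called, and the call of Cyp17a1 was lost (-0.26, adjusted p = 0.191). This setting was chosen after seeing the data. With the other-cell-poor class narrowed from 50% to 25% of spots, 311 genes were called. After thinning the Anxa2 count of each spot to a depth of 5000 UMIs before ranking, 281 were called. Spots with fewer than 5000 UMIs were left out of that setting, and the counts summed for the test were not thinned. Mmp12 was not called in the narrower class (0.54, edgeR adjusted p = 0.19). After thinning, Cyp2e1 was at 0.46 (edgeR adjusted p = 0.067), Sds at -0.41 (0.25), Pck1 at -0.34 (0.40), Il1rn at 0.38 (0.22) and Postn at 0.21 (0.34), in the same direction but not called, as were Clec2h, Scnn1a, Vipr1, Hsd17b6, Odf3b and Cyp17a1. The main list also held markers of other cells, with 6 of 23 macrophage genes higher and 1 lower (median 0.19), 7 of 16 stellate cell and myofibroblast genes higher (0.26), 1 of 15 endothelial genes higher (Stab2) and 4 of 5 red cell genes higher and 1 lower (Alas2). The macrophage genes that were higher were Mmp12, Chil3, Cd63, Gpnmb, H2-Ab1 and Fcer1g, and the Kupffer cell gene Clec4f was lower (-0.22), while C1qb (0.03) and Csf1r (-0.06) were level. Of 5 neutrophil genes 2 were lower, Il1b and G0s2.

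The surroundings of the classes are described by the genes that chose the spots, so no test is given for them. Of the touching spots, 54.0%, 55.9%, 62.6% and 60.5% were other-cell-poor around Anxa2-high spots in sections A to D, against 68.6%, 72.1%, 83.3% and 71.0% around Anxa2-low spots. The median distance to the nearest of the 10% of spots richest in the 5 genes was 1.73, 1.73, 2 and 2 spot spacings against 2, 2, 2.65 and 2, shorter in 3 of 4 sections and equal in the other. Touching spots in neither class held 2.82, 2.33, 3.37 and 1.45 Anxa2 UMIs per 10000 around Anxa2-high spots and 2.18, 1.59, 2.49 and 1.06 around Anxa2-low spots, higher in 4 of 4 sections (mean 2.49 against 1.83). The other-cell-poor ones among these touching spots were by the rule of the middle class. Those alone held 1.24, 0.766, 1.56 and 0.549 Anxa2 UMIs per 10000 around Anxa2-high spots and 1.22, 0.728, 1.52 and 0.556 around Anxa2-low spots. The values of these spots were thus close in every section, and lower beside Anxa2-high spots in section D.

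By the rule, 20% of the other-cell-poor spots of a section were Anxa2-high. Of the other-cell-poor neighbours of Anxa2-high spots, 21.7%, 20.8%, 25.5% and 23.3% were Anxa2-high themselves, against 12.6%, 15.1%, 12.6% and 17.7% of those of Anxa2-low spots. The share was thus close to 20% beside Anxa2-high spots, at most 25.5%, and below it beside Anxa2-low spots. In the 0 h sections, where the classes rest on far fewer Anxa2 molecules, it was 24.6%, 22.6% and 26.3% against 20.03%, 18.2% and 19.4%. The share of Anxa2-low spots at 48 h was 28.3%, 24.2%, 28.1% and 24.9% beside Anxa2-low spots, against 16.1%, 19.6%, 16.6% and 21.2% beside Anxa2-high spots. At 0 h that share was 20.9%, 21.1% and 19.3% against 21.2%, 17.9% and 19.4%.

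Middle spots beside the classes showed a weak form of the same contrast. Other-cell-poor spots of the middle 60% by Anxa2 were taken if they touched an Anxa2-high and no Anxa2-low spot (278, 102, 183 and 182 spots in sections A to D) and set against those that touched an Anxa2-low and no Anxa2-high spot (326, 150, 248 and 225). Of 10940 genes tested, 14 were higher beside Anxa2-high spots (0.128%) and 4 were lower (0.0366%). The 4 were Pck1 (-0.24, SE 0.036, adjusted p = 1.2e-05), Sds (-0.23), Upp2 (-0.24) and Saa4 (-0.18), and all were lower in the Anxa2-high spots themselves. The higher genes included Ly6d (0.25), S100a6 (0.24), Tuba1b (0.26), Cd63 (0.34) and the basement membrane gene Nid1 (0.50), which were also higher in Anxa2-high spots, and the mitotic gene Ube2c (0.47), Msn (0.39), Ccdc80 (0.46) and Prelp (0.30), which were not called there. Of the genes called higher in Anxa2-high spots, 346 of 418 had the same sign here (82.8%, against 51.2% of all genes), and of those called lower 508 of 588 (86.4%, against 48.8%). Their median differences were 0.11 and -0.06, so the neighbours differed by less than the classes. Those genes were called in the same 4 sections, and the spots compared here touch the classes. The shared signs are therefore a description and not independent evidence. The number of calls moved with single sections, with 27 without section A, 61 without section B, 35 without section D, 7 without section C and 1 by DESeq2. In section C the 5-gene score was also higher beside Anxa2-high spots, at 7.42 against 5.86 UMIs per 10000.

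The same Anxa2 contrast was drawn in the other-cell-rich spots, and the difference between the contrasts was tested, to ask which of the findings went with spots poor in other cells. Of 12175 genes, 2326 had a larger log2 fold change in other-cell-poor spots (19.1%) and 1612 a smaller one (13.2%). Scaling by total counts turned this split to 1196 larger and 4711 smaller and moved the median gene to -0.35. The composition of the spots differed as well. Hepatocyte markers lay at 712, 815, 616 and 741 UMIs per 10000 in the other-cell-rich Anxa2-high spots of sections A to D against 1194, 1259, 1091 and 1059 in the other-cell-rich Anxa2-low spots, and macrophage markers at 51.5, 52.4, 85.9 and 75.7 against 13.8, 13.8, 31.0 and 22.2. Both gaps were wider than between the other-cell-poor classes in every section, and their part in the differences below was not tested. Several pericentral genes changed sign between the settings. Cyp2e1 lay at 727 ± 85.7 against 393 ± 39.3 CPM in other-cell-poor spots and at 510 ± 80.0 against 730 ± 62.6 in other-cell-rich spots, with log2 fold changes of 0.81 and -0.96 and a difference of 1.75 (SE 0.15, adjusted p = 1.3e-07). Cyp2c29 went from 71.0 ± 16.4 against 40.6 ± 5.08 to 40.5 ± 12.5 against 73.1 ± 28.0 (difference 1.97), and Avpr1a from 0.83 to -0.79 (difference 1.61). Cyp2c37, Cyp2c50, Cyp2c54 and Cyp7a1 had differences of 1.89 to 2.05 with the same change of sign.

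Of the 426 genes higher in other-cell-poor Anxa2-high spots, 369 had the same sign in other-cell-rich spots and 56 the opposite. The difference was called for 51 of those 56. No difference was called for several genes described above, with Ly6d at 1.05 and 1.3497, Gsta1 at 1.03 and 1.252, Slpi at 1.004 and 0.91 and S100a10 at 0.30 and 0.53. Sprr1a differed the other way, at 1.07 in other-cell-poor and 2.10 in other-cell-rich spots (difference -1.11, adjusted p = 0.018), as did Mmp12 and Postn. Of the 588 lower genes, 572 were of the same sign in other-cell-rich spots, and 508 had a called positive difference, a smaller fall in other-cell-poor spots for those of the same sign. All 23 central and all 12 portal genes had a called positive difference, as did 16 of 18 cholesterol genes. So did other lists of hepatocyte genes, with 26 of 26 hepatocyte identity, 23 of 23 complement and coagulation, 15 of 15 bile acid and 18 of 20 fatty acid oxidation genes. Other lists went the other way, among them actin and motility, with 32 of 44 differences called negative and 2 positive. In the migratory signature 9 of 37 were negative (2 positive), in G2 and mitosis 15 of 54 (1) and in S phase 12 of 43 (0). Their medians in other-cell-rich spots were, in that order, 0.77, 0.50, 0.78 and 0.68, against 0.17, 0.16, 0.33 and 0.26 in other-cell-poor spots. The largest negative differences were those of genes of immune cells and matrix, Btk, Blnk, Ltbp2, Gdf3, Ccr1 and Syngr1 (-2.21 to -1.99), which were scarce in other-cell-poor spots, at 1.21 to 5.82 CPM in the Anxa2-high spots.

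**Figure D5:**
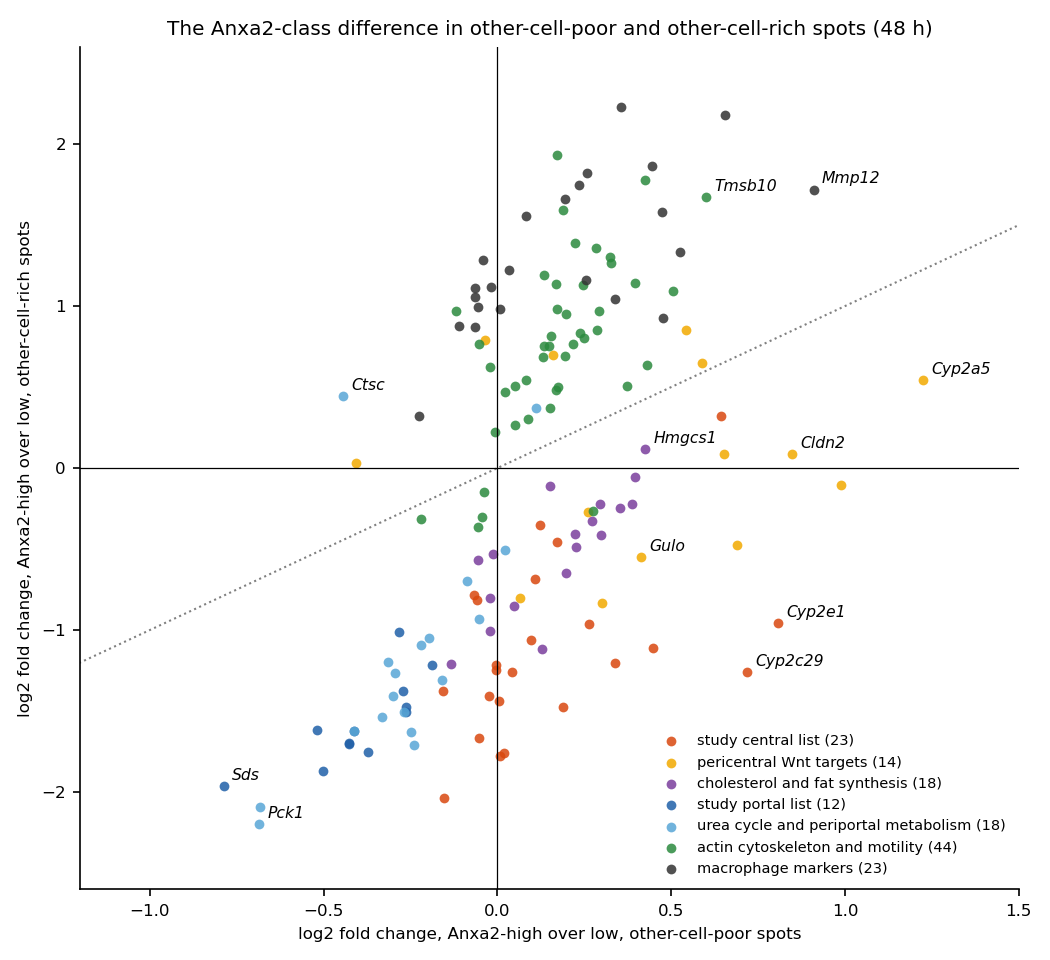
Log2 fold change of Anxa2-high over Anxa2-low spots in other-cell-poor spots (horizontal axis) and in other-cell-rich spots (vertical axis) for the members of 7 gene lists at 48 h, with a dotted line where both are equal. The study's central genes other than Lect2 lie below 0 on the vertical axis, such as Cyp2e1 at 0.81 and -0.96, whereas all 12 portal genes are below 0 on both axes.

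At 24 h and 36 h the classes were drawn by the same rule in 2 sections each, with 416 and 400 Anxa2-high spots, and the class difference was fitted in 1 model with the 48 h sections. The Anxa2-low spots then held 0 Anxa2 UMIs in 3 sections and 6 in 36 h B. In 24 h A, 24 h B and 36 h A, 350, 189 and 374 tied spots without an Anxa2 UMI stayed in the middle class. The Anxa2-low spots of these sections were thus a random draw from the spots without one. Anxa2-high spots held a median of 2, 3, 2 and 4 Anxa2 UMIs in 24 h A, 24 h B, 36 h A and 36 h B. The part of these ties and low counts in the comparison between times was not tested. In that fit 358 genes were higher and 507 lower in the Anxa2-high class at 24 h, 48 and 152 at 36 h and 437 and 616 at 48 h. Of the 426 genes higher at 48 h, 326 had the same sign at 24 h (76.5%, against 48.5% of all genes) and 370 at 36 h (86.9%). Of the 588 lower genes, 536 (91.2%, against 51.5%) and 547 (93.03%) did. The portal list was lower at all times, with 12 of 12 at 24 h and 10 of 12 at 36 h. Of the study's central list, 10 of 23 genes were higher at 24 h (median 0.25) and 2 at 36 h (-0.06). Of 16 pericentral Wnt targets, 4 were higher at 24 h (0.23) and 2 at 36 h (0.28), and 0 genes of either list were lower. Cyp2e1 was at 0.72 at 24 h and 0.32 at 36 h, Ly6d at 1.61 and 1.18, and Gsta1 at 1.23 and 0.88, all called.

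Few genes differed between 48 h and the mean of the earlier times. Of 11680 genes tested, 11 had a higher class difference at 48 h (0.0942%) and 7 a lower one (0.0599%). Of the 18 genes of the cholesterol and fat synthesis list, 3 were called higher (median 0.36), namely Idi1, Fdps and Hmgcs1. Idi1, the isopentenyl diphosphate isomerase, lay at 65.6, 34.9, 68.2 and 56.5 CPM in Anxa2-high against 52.3, 26.1, 37.6 and 46.4 in Anxa2-low spots at 48 h, and at 80.6 and 45.9 against 91.8 and 58.6 at 24 h. Its class differences were -0.38 at 24 h, -0.07 at 36 h and 0.39 at 48 h, and the contrast was 0.62 (SE 0.11, adjusted p = 5.3e-04). Fdps (0.43), Hmgcs1 (0.39) and the cholesterol genes Nsdhl (0.54) and Msmo1 (0.53), which are not in the list, had like contrasts, and the list had 11 of 18 genes lower at 24 h (median -0.33) and 1 higher at 36 h (-0.04). Alcam, an adhesion molecule (0.49), and the complement gene C6 (0.44) were also higher in the contrast.

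Genes that differed with Anxa2 early and less so at 48 h formed the other side. Sqstm1, the autophagy receptor p62, was at 0.75 at 24 h, 0.29 at 36 h and 0.04 at 48 h (contrast -0.48, SE 0.075, adjusted p = 3.6e-05). Gadd45a, a stress gene, went from 0.995 and 1.23 to -0.20 (-1.31), the desmosomal gene Dsp from 0.61 and 0.45 to -0.05 (-0.58), the mitochondrial chaperonin gene Hspe1 from 0.65 and -0.10 to -0.13 (-0.41) and the ferritin gene Fth1 from 0.76 and 0.39 to 0.26 (-0.31). Ubxn1 was at -0.37 in the contrast. The 18 calls depended on single sections, with 94 without 48 h C, 29 without 24 h A, 10 without 36 h A, 8 without 48 h A, 8 without 48 h B, 5 without 36 h B and 3 without 24 h B. Total-count scaling gave 4 higher and 13 lower. A mouse and its time point cannot be told apart in this comparison.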

How the data were processed

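Visium libraries of 11 mouse liver sections were analysed, with times and section names taken from the sample labels. Per the labels and the study's methods, the authors aligned reads to mm10 (Ensembl gene models) with Space Ranger 1.0.0, and the deposited matrices hold raw UMI counts of genes for 4992 barcodes, the same set in all 11 sections. The labels also name Seurat 4.1.1. No deposited count had been normalised. The tissue mask and array positions were read from the position files, and images were not used here.

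Spots were classed as described in the report. Members and gene lists were chosen with earlier results of these data known. Counts summed per section and class were tested with edgeR 4.0.16 in R 4.3.3 (filterByExpr, TMM scaling, robust quasi-likelihood fit, section as a block, Benjamini-Hochberg over all genes tested except the 6 rule genes, two-sided) and, as an alternative, DESeq2 1.42.0. The block is justified by the design, since both classes come from the same section. Deviations of the classes of a section from the class means correlated at 0.487 to 0.692, and with those of other sections at -0.0155 at most. Sections at 48 h differed by 10.4 to 23.3 chi-square units per gene, so none was a repeat of another. Single values per section were compared by exact sign-flip tests. Genes were named if called with at least 10 CPM (UMIs per 1000000 UMIs) and the same sign in all 4 sections (the 15 largest in each direction), if among the 4 most abundant of a list, or, in the other comparisons, if among the 6 largest calls in each direction; other called list members were named after their values were seen. A few genes are counted in their lists but not reported here by name. Coordinates are from GENCODE (vM21, mm10). The steps were tested on simulated data. Near-identical genes and overlapping genes are uncertain, since UMIs can be split between them.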

Additional observations from a re-analysis of the deposited data

Results flagged for a closer look

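A section stood apart from the other sections of its group in 14 of the 208 genes and measures examined by Dixon's test at 48 h, where chance flags about 1 in 20. The values are log2 ratios of Anxa2-high to Anxa2-low spots. Section C accounted for 7 of them, with the 5-gene other-cell score at 0.58, Col1a2 at 0.65, Pcna at 0.60, Aen at 0.45, Tubb2a at 0.17, C4b at -0.36 and Alas2 at -0.80, each farther from 0 than in the other 3 sections. Section B stood apart for Fasn at 0.30, Calr at -0.035, Cd5l at -0.27 and Ube2c at -0.36, and section D for Etfb at -0.024, Alb at -0.055 and Ubxn1 at -0.19.

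The Anxa2 difference itself differed between other-cell-poor and other-cell-rich spots, by the test of that difference, for mt-Atp8 (2.16), Cyp2c37 (2.05), Cyp2c50 (2.02), Cyp2c29 (1.97), Cyp2c54 (1.91), Cyp7a1 (1.89), Btk (-2.21), Blnk (-2.14), Ltbp2 (-2.12), Gdf3 (-2.09), Ccr1 (-2.06) and Syngr1 (-1.99). mt-Atp8 lay at 11.96 ± 3.94 against 7.46 ± 2.16 CPM in other-cell-poor spots and at 7.41 ± 4.07 against 16.5 ± 10.7 in other-cell-rich spots.

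Between 48 h and the mean of 24 h and 36 h it differed for Idi1 (0.62), Nsdhl (0.54), Msmo1 (0.53), Alcam (0.49), C6 (0.44), Fdps (0.43), Gadd45a (-1.31), Dsp (-0.58), Sqstm1 (-0.48), Hspe1 (-0.41), Ubxn1 (-0.37) and Fth1 (-0.31). C6 was lower with Anxa2 at 24 h (-0.50) and 36 h (-0.45) and at -0.04 at 48 h.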

How the results depend on the processing

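The count of 1014 genes called between Anxa2-high and Anxa2-low spots was 370 by DESeq2, 311 with the bottom 25% of spots by the other-cell score, 281 after thinning to 5000 UMIs, 0 with no replicate block, which drops the pairing of classes by section, and 511 to 933 with 1 section left out. None of the 1014 changed sign by DESeq2, scaling or leaving out a section, 10 did with the bottom 25%, 14 after thinning and 2 within bins of the wider score. Of the 15 largest differences named in each direction and S100a10, 11 lost their call after thinning and 5 with the bottom 25%. The 3938 calls of the poor-rich difference were 5907 under total-count scaling, which kept 2808 in direction and turned the sign of 192, 1292 with no replicate block and 3056 to 3887 with 1 section left out. The 18 calls beside the classes were 28 under total-count scaling, 1 by DESeq2, 38 with no filter on low counts, 0 with no replicate block (95 at an unadjusted p under 0.05) and 7 to 61 with 1 section left out. The 18 calls between times were 9 by DESeq2, 35 with no filter, 0 with no replicate block (155 unadjusted) and 3 to 94 with 1 section left out. The difference in summed markers turned for macrophages (-0.856) and cholangiocytes (-0.113) within bins of the wider score, for red cells with the bottom 25% (-0.477), and for neutrophils (0.0309 with the top and bottom 10%, -0.0474 to 0.0179 with 1 section left out, and 0.00505 without section B). Neighbour Anxa2, taken over all touching spots in neither class, and distance kept their direction in every alternative. The cause of these changes was not tested. The bottom 25% held smaller classes than the main setting, as did the top and bottom 10% by Anxa2, which gave 823 calls. With 4 sections the exact test cannot reach 0.05.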
